A study of Mus musculus with 7 samples.

Results

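The nuclear genes of oxidative phosphorylation were followed in supporting cells of the mouse cochlea, a non-sensory cell class that holds the hair cells in place in the hearing organ. Members were the protein-coding genes whose symbols start with Nduf, Uqcr, Atp5 or Cox4 to Cox8, together with Sdha, Sdhb, Sdhc, Sdhd and Cyc1, and without pseudogene symbols. This rule gave 94 of the 48709 genes in the deposited tables, of which 36 encode subunits of complex I, 8 encode assembly factors of complex I, 4 encode complex II, 9 complex III, 20 complex IV and 17 complex V. Ndufa4, first described as a subunit of complex I, and its paralogue Ndufa4l2 were counted with complex IV. Cochleae were taken on postnatal day 1 and kept in culture with DMSO as the solvent control, with 10 µM GSK-343, an inhibitor of the Polycomb methyltransferase EZH2, or with 200 nM TSA (trichostatin A), an inhibitor of histone deacetylases. All groups had the same medium, with EGF and FGF, and the same exposure of 48 h. GFP-positive cells were then sorted by flow cytometry. The labels name neither the strain nor the genotype nor the promoter that drives GFP. DMSO and TSA had 2 libraries each, and GSK-343 had 3. Whether replicates came from different cultures or mice is not in the labels, and p-values then cover the spread of these samples alone, which may be technical.

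Oxidative phosphorylation passes electrons from NADH (complex I) and succinate (complex II) through ubiquinone, complex III and cytochrome c to oxygen at complex IV, and the proton gradient made on the way drives ATP synthase (complex V). Complexes I, III, IV and V combine subunits encoded in the nucleus with subunits encoded in mitochondrial DNA, whereas complex II is encoded wholly in the nucleus. Many of the nuclear promoters hold sites for the nuclear respiratory factors NRF1 and GABP (a factor of the ETS family) and for YY1, and some subunits exist as tissue isoforms, such as the heart and muscle forms of complex IV subunits.

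The expected count per library totalled 2724381 to 5974230, and the tested members had a median of 64 to 134 counts per library. All 16 supporting-cell markers (among them Sox2, Sox9 and Prox1) were detected in every library. The deposited length of a gene was above its effective length (the length over which reads could start) by 49 bases (median) for DMSO, the same in each of the 2, but by 208.21 to 212.69 bases for the 5 treated ones. Mitochondrial ribosomal RNA took 23.6% and 20.8% of the counts in DMSO, 3.47%, 7.38% and 8.60% with GSK-343, and 10.4% and 18.1% with TSA. Each comparison with DMSO crosses these differences, and treatment cannot be told apart from them. TSA was compared with GSK-343 first because these libraries share the difference in length, but their shares of mitochondrial ribosomal RNA do not overlap, and its part in that comparison was not tested. Expression per library is given as TMM-scaled counts relative to library size (CPM), and levels of different genes are compared per length, in TPM. Fold changes are log2 values ± SE from edgeR's quasi-likelihood test over 14907 genes, and a gene was called at a Benjamini-Hochberg adjusted p under 0.05. Of the 94 members, 87 passed the filter on low counts. The others were Ndufa5, an accessory subunit of complex I, and the tissue isoforms Cox6a2, Cox6b2, Cox7a1, Cox7b2, Cox8b and Cox8c.

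Promoter windows from RefSeq (GRCm38.p6), from 250 bases before to 50 bases after the annotated start, were found for 76 of the 94 members, and exact motif letters were searched on both strands. The NRF1 letters CATGCGC occurred in 15 member promoters (19.7%), against 4.04% of 27025 gene promoters and 6.99% of the 10721 promoters matched to tested genes. The YY1 letters GATGGCG occurred in 11 (14.5%, against 6.66% of those of tested genes) and the ETS core CCGGAAG in 17 (22.4%, against 17.5%). The SP1 letters GGGCGG occurred in 46.1% of member promoters and in 64.6% of those of tested genes, and TATAAA in 9.21% and 6.82%. The member promoters had a median GC content of 58.5%, and all promoters 52.7%. The GC content of the promoters of tested genes was not taken, so members are not shown to differ from those. A match is a description of the letters and does not show that a factor binds. The 4 members below all hold ETS or NRF1 letters and do not stand for the members in general. They are shown 5′ to 3′ on the strand of the gene, from 150 bases before to 20 bases after the start. The ETS and NRF1 matches are in capitals, and matches to other letters, such as those of SP1 in Ndufs3, Sdhd and Atp5g2, are in lower case. CTTCCGG is the ETS core read on the other strand, and capitals that read the same on both strands hold the CATGCGC letters once on each strand.
Ndufs3 (chr2:90904702-90904871, minus strand; ETS matches at -27 and 2, counted from 1 at the start): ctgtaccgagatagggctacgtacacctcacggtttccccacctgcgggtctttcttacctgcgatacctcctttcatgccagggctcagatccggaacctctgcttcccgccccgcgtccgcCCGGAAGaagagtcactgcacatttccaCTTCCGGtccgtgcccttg
Sdhd (chr9:50603830-50603999, minus strand; ETS match at -46): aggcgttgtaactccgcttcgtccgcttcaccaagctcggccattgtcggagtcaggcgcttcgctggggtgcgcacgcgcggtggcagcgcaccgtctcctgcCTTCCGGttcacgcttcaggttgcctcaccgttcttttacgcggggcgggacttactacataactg
Atp5g2 (chr15:102671028-102671197, minus strand; NRF1 letters from -42): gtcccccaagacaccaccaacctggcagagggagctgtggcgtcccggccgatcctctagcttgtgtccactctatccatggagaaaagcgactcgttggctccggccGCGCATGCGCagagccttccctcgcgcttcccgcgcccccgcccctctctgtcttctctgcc
Atp5k (chr5:108434380-108434549, minus strand; NRF1 letters from -50 and ETS match at 13): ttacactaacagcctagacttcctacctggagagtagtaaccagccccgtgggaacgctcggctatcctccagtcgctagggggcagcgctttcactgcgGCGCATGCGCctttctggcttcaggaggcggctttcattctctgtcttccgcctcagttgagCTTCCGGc
Ndufs3 is the complex I subunit that was lower with TSA than with GSK-343, and Sdhd is the membrane anchor of complex II that was higher with both compounds than in DMSO. Atp5g2 and Atp5k carry the same NRF1 letters at nearly the same distance from the RefSeq start used. Their counts lay on opposite sides of DMSO with both compounds. The printed window of Atp5g2 lies inside the gene's GENCODE span (chr15:102662864-102672352), so its RefSeq start is not the outermost annotated start. The median log2 fold change of TSA over GSK-343 was -0.67 in the 15 tested members with CATGCGC and -0.15 in the 56 without, and -0.91 in the 17 with the ETS core and -0.15 in the 54 without. Against DMSO the members with CATGCGC had the higher medians, 0.29 against -0.24 for TSA and 0.51 against 0.20 for GSK-343, and those with the ETS core the lower ones, -0.49 against 0.10 and -0.030 against 0.33. These medians are descriptions with no test.

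Together the members made up 1.14% and 0.937% of the TPM of nuclear protein-coding genes in DMSO, 1.40%, 1.67% and 1.85% with GSK-343, and 1.91% and 1.96% with TSA. On this scale both TSA libraries lay above the GSK-343 libraries, and these above DMSO. As a share of all counts, which are not divided by length, the members took 0.232% and 0.231% in DMSO, 0.467%, 0.567% and 0.632% with GSK-343, and 0.514% and 0.499% with TSA. The TSA libraries then lay within the range of GSK-343. They also did so as a share of all TPM (1.48% and 1.35%, against 1.25%, 1.35% and 1.52%), so the order depended on the denominator as well. Nuclear protein-coding genes took 62.5% and 63.4% of the counts in DMSO, 93.4%, 86.3% and 86.7% with GSK-343, and 85.4% and 78.2% with TSA. A permutation test of such shares cannot pass 0.05 with 2 against 3 libraries. Complex II took 0.0229% and 0.0212% of nuclear protein-coding TPM in DMSO, 0.0617%, 0.0653% and 0.0673% with GSK-343, and 0.0823% and 0.0711% with TSA. Complex III took 0.111% and 0.105%, 0.162%, 0.267% and 0.269%, and 0.327% and 0.329% in the same order. The complex I assembly factors stayed between 0.0136% and 0.0233% in all 7 libraries: both TSA libraries (0.0201% and 0.0174%) lay below both DMSO libraries (0.0233% and 0.0209%), and GSK-343 (0.0210%, 0.0136% and 0.0159%) overlapped each of the other groups.

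**Figure D1:**
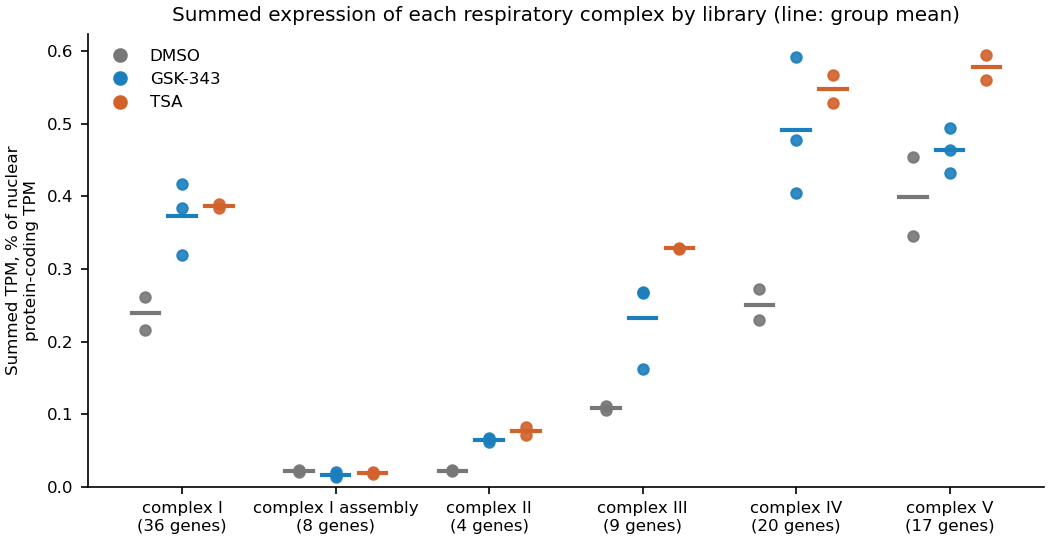
Summed TPM of the members of each respiratory complex as a percentage of the TPM of nuclear protein-coding genes (vertical axis), one point per library and a line at each group mean. Complexes I, II, III and IV lay higher in all treated libraries than in DMSO on this scale, whereas for the assembly factors of complex I both TSA libraries lay below DMSO and GSK-343 overlapped both.

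Levels per length differed widely within a complex. In complex I, the mean TPM over the 7 libraries ran from 5.22 for Ndufa11 to 227 for Ndufa12, both accessory subunits, with a median of 70.1 over the complex. In complex II it ran from 61.5 for Sdhb, the iron-sulfur subunit, to 148 for Sdhc, a membrane anchor. In complex III it ran from 23.7 for Uqcrb to 769 for Uqcrh, the hinge protein. In complex IV, Cox4i1, the general form of subunit 4, was highest at 1335 TPM. In complex V, Atp5b, the catalytic β subunit, was highest at 858 TPM, and Atp5k, subunit e of the membrane part, was lowest at 18.6 TPM. The assembly factors of complex I had a median of 13.8 TPM, from 7.27 for Ndufaf8 to 27.9 for Ndufaf1. Reads of many of these genes can also match processed pseudogenes. The expected count of Ndufa12 and Atp5g2 was not a whole number in any of the 7 libraries, which shows that reads were shared with other genes, and the same held in 6 libraries for Uqcrc2 and in 5 for Ndufs1 and Atp5g1. Counts that were not whole numbers were found for 58 and 56 of the 94 members in DMSO, but for 2 to 7 in each treated library. Most members are therefore less certain in DMSO, and the part of read sharing in the comparisons with DMSO was not tested.

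TSA and GSK-343 libraries share the same difference between length and effective length, and no member was called higher with TSA than with GSK-343, against 4.56% of all tested genes. Ndufs3 and Cox4i2 were called lower (2 of 87, against 5% of all tested genes). At an unadjusted p under 0.05 there were 16 of 87 members, beside 4146 of all 14907 tested genes in either direction. Of these members 1 was higher and 15 were lower. The 4146 are not split by direction here, so the 15 have no share of all genes beside them. The count of 2 was 0 without TSA replicate 2, 1 without GSK-343 replicate 2 or 3, 4 without DMSO replicate 1 and 8 without GSK-343 replicate 1. The share of all genes called in those fits is not given. In the fit of all 7 libraries the members' median log2 fold change was -0.48, against 0 for all tested genes. Of 87 members, 59 were on the negative side and 28 on the positive side (49.5% and 48.6% of all genes were). In 30 members (34.5%) every TSA library lay below every GSK-343 library, against 22.9% of all genes, and in 8 (9.20%) every TSA library lay above, against 23.5%. The medians of the complexes were all negative: -0.44 for complex I, -0.83 for its assembly factors, -0.32 for complex II, -0.44 for complex III, -0.74 for complex IV and -0.32 for complex V. With a trend on GC content and length removed in each library, the members' median was -0.059 and that of all genes -0.14, so the distance of the members from all genes changed sign. On log2(TPM + 1) the members' median was -0.016 and that of all genes 0.24.

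**Figure D2:**
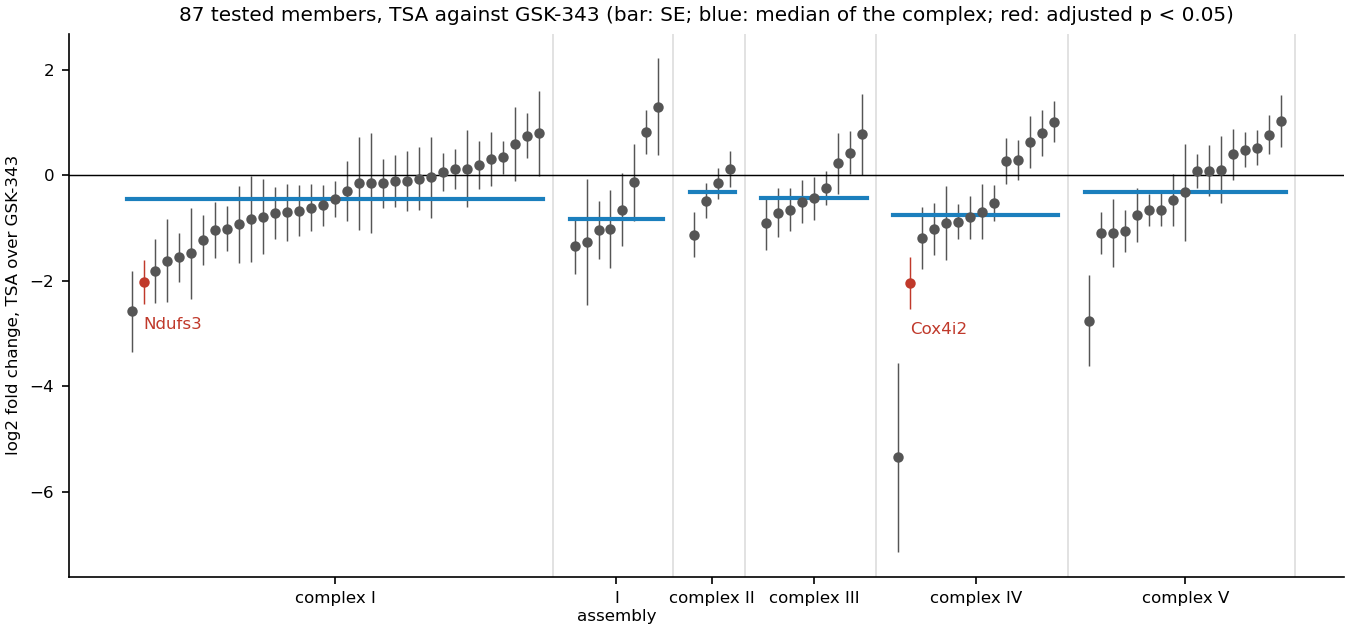
Log2 fold change of TSA over GSK-343 on the TMM-scaled count scale (vertical axis) for the 87 tested members, sorted within each complex, with SE bars and a line at the median of each complex. The 2 called members, Ndufs3 and Cox4i2, lie near -2, and the medians of the 6 groups lie between -0.83 and -0.32.

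Ndufs3 (chr2:90894634-90904827, minus strand, mm10) encodes a core subunit of the matrix arm of complex I. Its expression was 29.3 and 36.8 CPM in DMSO, 56.1, 50.1 and 75.8 CPM with GSK-343, and 17.9 and 11.7 CPM with TSA. Both TSA libraries were below all 5 others. The mean ± SD was 60.7 ± 13.5 CPM with GSK-343 (n = 3) and 14.8 ± 4.38 CPM with TSA (n = 2), a log2 fold change of -2.03 ± 0.42 (edgeR adjusted p = 0.0158). The call was lost without TSA replicate 2 (adjusted p = 0.149) and without GSK-343 replicate 3 (adjusted p = 0.0522). Over the 19 alternative settings its log2 fold change ran from -2.37 to -1.44. Against DMSO, Ndufs3 was called with neither compound (edgeR adjusted p = 0.0634 for TSA and 0.0906 for GSK-343).

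Cox4i2 (chr2:152754173-152765037, plus strand, mm10) encodes the form of complex IV subunit 4 known from lung and from responses to low oxygen. It was at 15.3 and 32.3 CPM in DMSO, 53.5, 90.1 and 51.1 CPM with GSK-343, and 19.9 and 11.4 CPM with TSA. Each TSA library lay below each GSK-343 library, whereas TSA overlapped DMSO. The log2 fold change of TSA over GSK-343 was -2.05 ± 0.49 (edgeR adjusted p = 0.0265), and that of GSK-343 over DMSO was 1.45 ± 0.47 (edgeR adjusted p = 0.0287). The first call was lost in 6 of 19 alternatives, among them without TSA replicate 2 (adjusted p = 0.206) and without GSK-343 replicate 2 (adjusted p = 0.0800). The second was lost without DMSO replicate 1 (adjusted p = 0.179) and without GSK-343 replicate 2 (adjusted p = 0.114).

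The other core subunits of complex I did not pass the test between the compounds. Ndufs7 and Ndufs8, which carry iron-sulfur clusters next to the quinone site and are named here after their values were seen, had the next smallest adjusted p of the core. Ndufs7 was at 7.41 and 10.4 CPM in DMSO, 7.37, 11.4 and 12.5 CPM with GSK-343, and 1.400 and 2.05 CPM with TSA (log2 fold change -2.58 ± 0.77, edgeR adjusted p = 0.0527), and it was lower with TSA than in DMSO (-2.35 ± 0.80, edgeR adjusted p = 0.0436), a call lost in 14 of 19 alternatives, among them without any one of the DMSO or TSA libraries (adjusted p up to 0.239). Ndufs8 was at 14.1 and 28.2 CPM in DMSO, 41.4, 49.9 and 74.9 CPM with GSK-343, and 22.97 and 14.7 CPM with TSA (-1.56 ± 0.47, edgeR adjusted p = 0.0561). In both genes the TSA libraries lay below the GSK-343 libraries, and each passed the test between the compounds in 7 of 19 alternatives. Ndufs1, the largest core subunit, had the opposite sign (0.34 ± 0.32, edgeR adjusted p = 0.522), and its TSA and GSK-343 libraries overlapped. Of the core subunits 5 of 7, and of the tested accessory subunits 21 of 28, had negative values. Ndufab1, the mitochondrial acyl carrier protein, was at 29.00 and 29.3 CPM in DMSO, 15.6, 15.3 and 23.1 CPM with GSK-343, and 28.01 and 32.9 CPM with TSA and was not called in any comparison.

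Ndufa4 had a positive value between the compounds and did not pass the test (1.02 ± 0.38, edgeR adjusted p = 0.104). Its libraries were at 51.9 and 45.9 CPM in DMSO, 26.9, 31.6 and 49.9 CPM with GSK-343, and 57.1 and 89.8 CPM with TSA, with both TSA libraries above all others. Ndufa4l2, its paralogue known from low oxygen, had 0 and 4 counts in DMSO, 39, 41 and 2 counts with GSK-343, and 0 and 1 counts with TSA. Its GSK-343 libraries 1 and 2 were high and GSK-343 library 3 was near the other groups, so the fitted value of -5.35 ± 1.80 (edgeR adjusted p = 0.0753) rests on those 2 libraries and depends on how low counts are fitted.

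Marker sums of other cell types also differed between the treated groups. The 16 supporting-cell markers summed to 12142 to 15722 CPM with GSK-343 and to 6330 and 5292 CPM with TSA. S100a1 alone gave 3527, 7046 and 7850 CPM with GSK-343. Without it, a sum added after the values were seen, the other 15 came to 7709 to 8675 CPM with GSK-343, 5092 and 4031 CPM with TSA, and 11624 and 9815 CPM in DMSO. Of the 16, 0 were called higher and 5 lower with TSA than with GSK-343, 0 and 7 with TSA than in DMSO, and 3 and 4 with GSK-343 than in DMSO, with Sox10, Jag1, Prox1 and Cdkn1b lower with each compound than in DMSO. The 8 neuronal markers summed to 88.6 to 309 CPM and to 740.5 and 718 CPM, the 10 hair-cell markers to 409 to 1044 CPM and to 1992 and 599 CPM, and the 4 glial markers to 355 to 612 CPM and to 151 and 144 CPM. Among the hair-cell markers Tmc1 was at 0 in GSK-343 library 2, and among the neuronal markers Gap43 was at 0 in GSK-343 library 3. Foxd3, a glial marker, was at 0 in 5 of the 7 libraries. Mesenchymal, blood and endothelial markers summed to at most 61.9, 18.6 and 15.1 CPM in any library. In DMSO the supporting-cell, neuronal, hair-cell and glial markers summed to 12269 and 10271, 118 and 97.8, 374 and 289, and 119 and 112 CPM. Of the hair-cell markers, 6 were called higher with TSA and 4 with GSK-343 than in DMSO, and 0 lower. Of the neuronal markers, 5 were called higher and 0 lower with TSA, and 3 higher and 1 lower with GSK-343. Between TSA and GSK-343, 3 neuronal markers were called higher, 1 glial marker lower and no hair-cell marker either way. A pericyte list of 9 genes, added after the values of Cox4i2 were seen, summed to 155 to 177 CPM with GSK-343, 114 and 99.3 CPM with TSA, and 275 and 297 CPM in DMSO. The part of other cells in the values of Ndufs3 and Cox4i2, and in the comparisons with DMSO that follow, was not tested. In sorted cell pools, fewer cells of a type and less RNA per cell cannot be told apart.

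Against DMSO, members moved in both directions. With GSK-343, 24 of 87 members were called higher (17.7% of all tested genes were) and 11 lower (21.3% of all). With TSA, 16 were called higher (12.8% of all) and 11 lower (15.7% of all). For TSA, 8 were called higher and 3 lower without DMSO replicate 1, 9 and 2 without TSA replicate 2, and 7 and 5 were called lower without DMSO replicate 2 and without TSA replicate 1. For the fits lacking a library, the shares of all genes called are not given. With all 7 libraries the members' median log2 fold change was 0.48 for GSK-343 and -0.19 for TSA. Those of all genes were -0.04 and -0.05. Every TSA library lay above both DMSO libraries in 29 members and below both in 36 (33% and 35.6% of all genes did), and every GSK-343 library lay above in 34 and below in 25 (28.6% and 32.1% of all genes). Both comparisons use the same DMSO libraries. A call in one comparison and not the other does not show that the compounds differ, and the direct comparison called 2 members.

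The direction of these fold changes went with transcript length. The tested members had a median length of 740 bases, against 2507 bases for all tested genes. In the shortest 29 members (median 534 bases) the median log2 fold change was -1.21 for TSA and -0.64 for GSK-343, with 3 called higher and 8 lower for TSA and 2 and 9 for GSK-343. In the longest 29 (median 1261 bases) it was 0.62 and 0.87, with 9 higher and 1 lower for TSA and 12 and 0 for GSK-343. With the deposited effective length as an offset, added after the data were seen, the medians of the shortest 29 were -0.43 for TSA and -0.24 for GSK-343. The members' median for TSA then changed sign, to 0.19, with 18 called higher and 8 lower (12.5% and 14.9% of all genes under that fit). For GSK-343 it was 0.61, with 28 higher and 6 lower (17.2% and 20.8% of all genes). Between TSA and GSK-343 the medians of the shortest, middle and longest 29 members were -0.29, -0.67 and -0.48, and the offset left 0 called higher and 2 lower (3.42% and 3.66% of all genes). On log2(TPM + 1), limma called 39 members higher and 3 lower for TSA (26.1% and 12.9% of all genes) and 43 higher and 4 lower for GSK-343 (21.3% and 16.4% of all genes). The low values of short members against DMSO are given below with this limit.

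**Figure D3:**
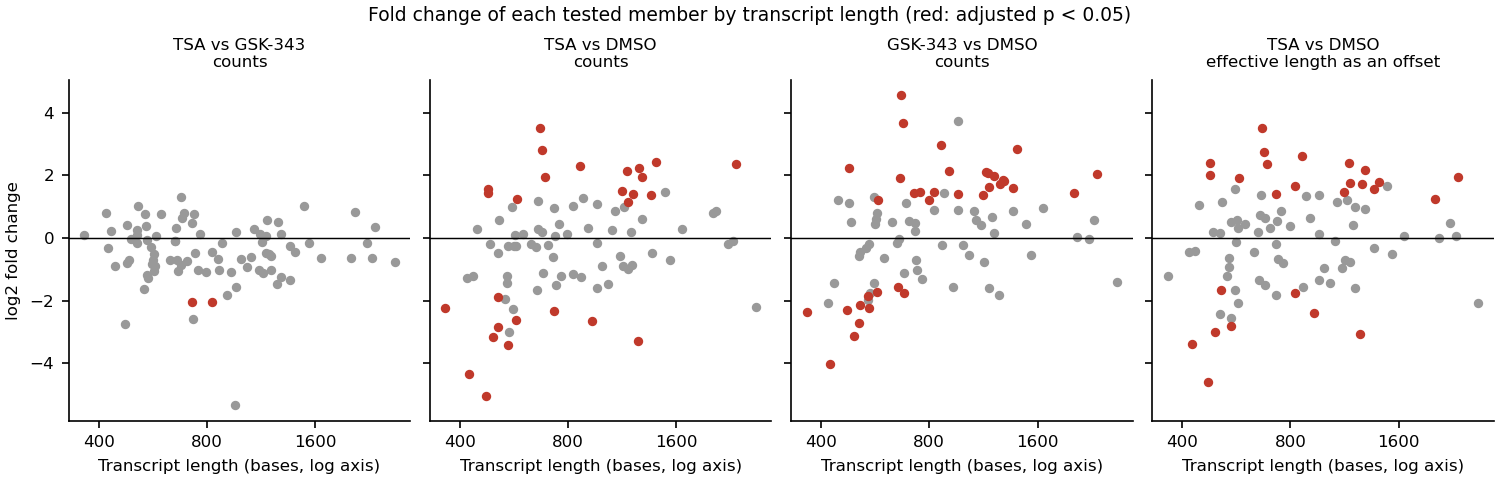
Log2 fold change of each of the 87 tested members (vertical axis) against deposited transcript length in bases (log axis), with members called at an adjusted p under 0.05 in red. In the comparisons of TSA and GSK-343 with DMSO most of the lowest values belong to the shortest transcripts, and the values of TSA over GSK-343 have medians of -0.29, -0.67 and -0.48 from the shortest 29 to the longest 29 members.

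In complex I, Ndufs1 (chr1:63143596-63176833, minus strand) rose with both compounds: it was at 34.4 and 38.7 CPM in DMSO, 181, 144 and 125 CPM with GSK-343, and 150.3 and 229.6 CPM with TSA. All 5 treated libraries were above both DMSO libraries, with log2 fold changes of 2.38 ± 0.37 for TSA (edgeR adjusted p = 0.00122) and 2.04 ± 0.35 for GSK-343 (edgeR adjusted p = 0.00106). Ndufv1, the core subunit that binds NADH and FMN, was at 12.6 and 13.3 CPM in DMSO, 36.5, 57.7 and 59.4 CPM with GSK-343, and 39.2 and 29.9 CPM with TSA and rose with GSK-343 (1.98 ± 0.42, edgeR adjusted p = 0.0034) and with TSA (1.42 ± 0.44, edgeR adjusted p = 0.0306). The accessory subunit Ndufa8 rose by 2.29 ± 0.56 with TSA and 2.96 ± 0.55 with GSK-343 (edgeR adjusted p = 0.0108 and 0.00158), from 3.78 and 14.1 CPM in DMSO to between 39.6 and 91.8 CPM in the treated libraries. The TSA call of Ndufa8 was lost without DMSO replicate 1 (adjusted p = 0.0673), and that of Ndufv1 in 6 of 19 alternatives, among them without any one of the DMSO or TSA libraries (adjusted p up to 0.177). Ndufv3, an accessory subunit of the NADH-binding module, was called higher with GSK-343 (1.38 ± 0.41, edgeR adjusted p = 0.0189). With TSA it was called higher too, at 1.50 ± 0.44. That call was lost without either DMSO or either TSA library (adjusted p up to 0.118). In all, GSK-343 gave 10 called higher and 3 lower among 35 tested complex I subunits (17.7% and 21.3% of all tested genes were). TSA gave 5 and 4 (12.8% and 15.7% of all). None of the 8 assembly factors of complex I was called in any comparison.

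Of the complex I members that fell, Ndufc1, Ndufa3 and Ndufc2 had lengths of 493 to 654 bases. Ndufc1 was at 15.5 and 16.2 CPM in DMSO, 1.98, 1.704 and 1.62 CPM with GSK-343, and 1.68 and 1.76 CPM with TSA, a log2 fold change of -3.18 ± 0.83 with TSA (edgeR adjusted p = 0.0148) and -3.14 ± 0.71 with GSK-343 (edgeR adjusted p = 0.00456). The TSA call was lost without any one of the DMSO or TSA libraries (adjusted p up to 0.124), and the GSK-343 call with the GC and length trend removed (adjusted p = 0.0656). Ndufa3 fell with TSA (-2.85 ± 0.95) and GSK-343 (-2.70 ± 0.81), and the TSA call was lost in 12 of 19 alternatives (adjusted p up to 0.298) and the GSK-343 call in 5, among them without DMSO replicate 2 (adjusted p = 0.114) or GSK-343 replicate 3 (adjusted p = 0.0661). Ndufa13, also known as GRIM-19 and at 1251 bases longer than the others, was at 22.9 and 20.1 CPM in DMSO, 1.13, 9.001 and 7.86 CPM with GSK-343, and 2.52 and 1.76 CPM with TSA. It fell by 3.31 with TSA (edgeR adjusted p = 0.0207, lost in 6 of 19 alternatives with an adjusted p up to 0.162). Ndufc2 fell by 1.57 with GSK-343, a call lost in 13 of 19 alternatives (adjusted p up to 0.424).

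Of the 4 genes of complex II, 3 were called higher with GSK-343 and 2 with TSA (17.7% and 12.8% of all tested genes were). Sdhd (chr9:50596357-50603812, minus strand), a membrane anchor that helps to bind ubiquinone, was at 21.1 and 29.5 CPM in DMSO, 64.6, 104 and 103 CPM with GSK-343, and 96.6 and 98.8 CPM with TSA. Every treated library lay above both DMSO libraries, and the log2 fold changes were 1.95 ± 0.39 for TSA (edgeR adjusted p = 0.00451) and 1.84 ± 0.37 for GSK-343 (edgeR adjusted p = 0.00259). Sdhc, the other anchor, was at 29.8 and 31.8 CPM in DMSO, 94.6, 80.1 and 114 CPM with GSK-343, and 68.1 and 70.1 CPM with TSA. It rose by 1.64 ± 0.34 with GSK-343 (edgeR adjusted p = 0.00302) and by 1.16 ± 0.36 with TSA (edgeR adjusted p = 0.0293), and the TSA call was lost without any one of the DMSO or TSA libraries (adjusted p up to 0.124). Sdhb was at 12.6 and 11.2 CPM in DMSO, 33.1, 55.5 and 67.1 CPM with GSK-343, and 24.9 and 22.6 CPM with TSA and rose with GSK-343 (2.12 ± 0.45, edgeR adjusted p = 0.00337), and its value with TSA was 1.00 ± 0.47 (edgeR adjusted p = 0.13). Sdha, the flavoprotein that oxidises succinate, lay between 85.1 and 109 CPM in all 7 libraries. Its log2 fold change was -0.20 ± 0.33 for TSA and -0.04 ± 0.30 for GSK-343 in counts, but 1.52 and 0.95 on log2(TPM + 1), where limma called both (adjusted p = 0.00906 and 0.0353).

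In complex III, Uqcrc1 (chr9:108936633-108949623, plus strand), core protein 1, had the largest change. It was at 8.09 and 16.7 CPM in DMSO, 56.1, 107 and 105 CPM with GSK-343, and 58.8 and 73.03 CPM with TSA, with all treated libraries above DMSO. Its log2 fold changes were 2.42 ± 0.48 for TSA (edgeR adjusted p = 0.0042) and 2.85 ± 0.47 for GSK-343 (edgeR adjusted p = 0.000828). Uqcrfs1, the Rieske iron-sulfur protein, was at 33.01 and 23.98 CPM in DMSO, 85.3, 90.5 and 85.8 CPM with GSK-343, and 70.02 and 76.8 CPM with TSA. It rose by 1.36 ± 0.36 and 1.61 ± 0.34 (edgeR adjusted p = 0.0152 and 0.00329). The TSA call of Uqcrfs1 was lost without DMSO replicate 2 or TSA replicate 2 (adjusted p = 0.1002 and 0.0823). Uqcrh rose with TSA (1.56 ± 0.46, edgeR adjusted p = 0.0252), a call lost without DMSO replicate 1 or TSA replicate 2 (adjusted p up to 0.158). Cyc1, cytochrome c1, was at 52.3 and 59.4 CPM in DMSO, 46.7, 115 and 106 CPM with GSK-343, and 71.1 and 55.4 CPM with TSA, with overlapping groups and no call. No member of complex III was called lower in any comparison. Of all tested genes, 5% were lower for TSA against GSK-343, and 15.7% (TSA) and 21.3% (GSK-343) were lower than in DMSO.

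In complex IV, Cox4i1 (chr8:120668222-120674207, plus strand) rose with both compounds: it was at 52.3 and 42.5 CPM in DMSO, 475, 559 and 805 CPM with GSK-343, and 361 and 307 CPM with TSA. Every treated library lay far above both DMSO libraries, and the log2 fold changes were 2.81 ± 0.38 for TSA (edgeR adjusted p = 0.000517) and 3.69 ± 0.38 for GSK-343 (edgeR adjusted p = 5.71e-05). Both calls held in all 19 alternatives. Cox5b rose by 2.23 ± 0.44 with GSK-343 and 1.43 ± 0.46 with TSA, and Cox5a rose by 1.93 ± 0.51 with TSA. The TSA calls of Cox5a and Cox5b were lost in 2 and 4 of 19 alternatives, both when DMSO replicate 1 was left out, Cox5a also when TSA replicate 2 was dropped and Cox5b when GSK-343 replicate 2 or TSA replicate 1 was dropped (adjusted p up to 0.190). Cox7a2 was called higher with GSK-343 (1.48 ± 0.51, edgeR adjusted p = 0.0363), a call lost in 4 of 19 alternatives, namely the replicate block (adjusted p = 0.183) and the fits lacking either DMSO library or GSK-343 replicate 3 (adjusted p = 0.129, 0.0894 and 0.171). Cox6b1 and Cox7a2l, the latter a factor of respiratory supercomplexes, were not called in any comparison (Cox7a2l was at 66.5 and 109 CPM in DMSO, 103, 136 and 154 CPM with GSK-343, and 105 and 215 CPM with TSA).

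Cox8a, Cox7c, Cox6a1 and Cox7b, small subunits with deposited lengths of 512 to 681 bases, had the opposite sign. Cox8a was at 84.97 and 46.6 CPM in DMSO, 5.67, 17.5 and 18.7 CPM with GSK-343, and 7.84 and 4.400 CPM with TSA, with log2 fold changes of -3.42 ± 0.66 for TSA and -2.23 ± 0.54 for GSK-343 (edgeR adjusted p = 0.00359 and 0.00642). Cox7c was at 65.2 and 44.1 CPM in DMSO, 11.05, 12.2 and 13.6 CPM with GSK-343, and 12.3 and 17.3 CPM with TSA, with -1.88 ± 0.48 and -2.15 ± 0.43 (edgeR adjusted p = 0.0136 and 0.00236). In both genes the treated libraries lay wholly below DMSO. The TSA call of Cox7c was lost in 7 of 19 alternatives, among them without DMSO replicate 1 or either TSA library (adjusted p up to 0.383), and the GSK-343 call of Cox8a in 3, among them without DMSO replicate 1 (adjusted p = 0.0746). The GSK-343 call of Cox7c was lost with the GC and length trend removed (adjusted p = 0.121), and the TSA call of Cox8a on both log2(TPM) scales (adjusted p up to 0.0914). Cox6a1 fell with both (-2.63 ± 0.77 and -1.72 ± 0.64), and each of its calls was lost in 8 of 19 alternatives (adjusted p up to 0.475 and 0.426). Cox7b fell by 1.76 with GSK-343, a call lost in 3 of 19 alternatives, among them without DMSO replicate 2 (adjusted p = 0.184). Over the 19 alternatives the log2 fold change nearest to 0 for Cox7c was -0.52 with TSA and -0.81 with GSK-343.

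In complex V, the γ subunit Atp5c1 and subunit b of the stator stalk, Atp5f1, rose with both compounds. Atp5c1 was at 91.98 and 91.5 CPM in DMSO, 292, 387 and 485 CPM with GSK-343, and 337 and 481 CPM with TSA (log2 fold change 2.16 ± 0.37 for TSA and 2.08 ± 0.35 for GSK-343, edgeR adjusted p = 0.0019 and 0.000964). Atp5f1 was at 26.1 and 25.7 CPM in DMSO, 66.6, 77.4 and 113 CPM with GSK-343, and 111 and 136 CPM with TSA (2.25 ± 0.39 and 1.73 ± 0.36, edgeR adjusted p = 0.00203 and 0.0032). In both genes no treated library reached down to DMSO. Of the catalytic subunits, Atp5a1 (α) was at 154 and 250.3 CPM in DMSO, 587, 505 and 565 CPM with GSK-343, and 351 and 352 CPM with TSA and rose with GSK-343 (1.45 ± 0.32, edgeR adjusted p = 0.00438), a call lost without DMSO replicate 1 (adjusted p = 0.0587). Atp5b (β) was at 578 and 508 CPM in DMSO, 389, 467 and 527 CPM with GSK-343, and 316 and 266 CPM with TSA and was not called (-0.90 ± 0.33 for TSA and -0.24 ± 0.29 for GSK-343). The α and β subunits stand in equal number in the enzyme, and with GSK-343 all libraries lay above DMSO for Atp5a1 and overlapped DMSO for Atp5b.

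Atp5k (chr5:108433244-108434448, minus strand), Atp5e (subunit ε), Atp5d (subunit δ), Atp5h (subunit d) and Atp5mpl had the opposite sign. Atp5k had 64.98 and 60.05 counts in DMSO, 2, 4 and 5 counts with GSK-343, and 2 and 3 counts with TSA, or 14.6 and 15.7 CPM in DMSO, 0.567, 0.974 and 1.16 CPM with GSK-343, and 0.5601 and 0.8799 CPM with TSA. Its log2 fold changes were -4.34 ± 0.97 for TSA and -4.01 ± 0.79 for GSK-343 (edgeR adjusted p = 0.00734 and 0.00237), and the TSA call was lost when either TSA library was left out (adjusted p = 0.0740 and 0.0576). Atp5e was at 23.6 and 36.3 CPM in DMSO, 4.53, 10.7 and 2.77 CPM with GSK-343, and 0.5601 and 1.17 CPM with TSA, with -5.06 ± 0.93 and -2.31 ± 0.67 (edgeR adjusted p = 0.0027 and 0.0164). Its TSA libraries were the lowest, but TSA and GSK-343 did not pass the test (-2.76 ± 0.86, edgeR adjusted p = 0.0621). Atp5d was at 48.7 and 52.1 CPM in DMSO, 6.23, 20.9 and 23.6 CPM with GSK-343, and 12.3 and 3.52 CPM with TSA and fell by 2.66 with TSA, a call lost in 5 of 19 alternatives: without DMSO replicate 1 or TSA replicate 2, with total count scaling and on both log2(TPM) scales (adjusted p up to 0.184). Atp5h and Atp5mpl fell with GSK-343 (-1.84 ± 0.47 and -2.35 ± 0.61), and the call of Atp5h was lost in 5 of 19 alternatives, among them without DMSO replicate 1 (adjusted p = 0.119), and that of Atp5mpl in 4. With the GC and length trend removed, Atp5mpl, at 365 bases the shortest of the tested members, was at 0.036 for GSK-343 (adjusted p = 0.966). Atp5mpl was also called lower with TSA than in DMSO (-2.24 ± 0.70, edgeR adjusted p = 0.0303). Atp5h had -1.45 ± 0.53 with TSA and was not called (edgeR adjusted p = 0.0575).

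**Figure D4:**
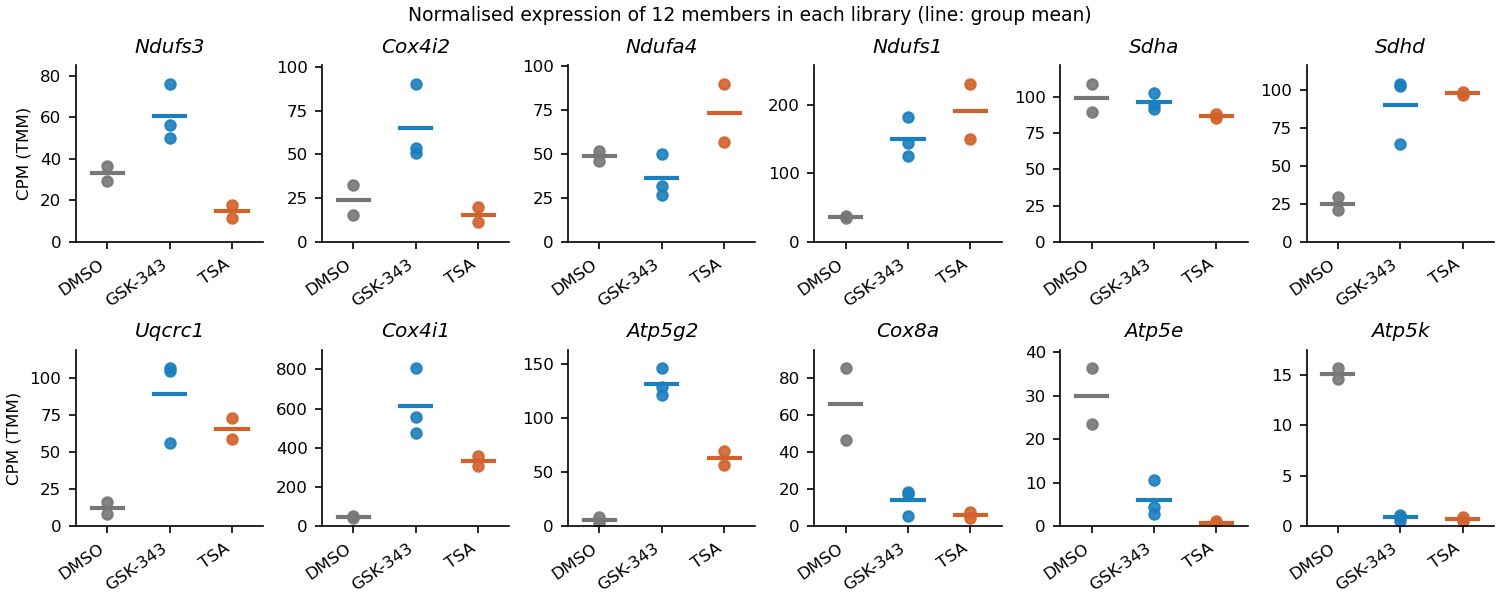
TMM-scaled CPM (vertical axes, each from 0) of 12 members in each library, one point per library and a line at the group mean. Ndufs3 and Cox4i2 are lower with TSA than with GSK-343, Ndufs1, Sdhd, Uqcrc1, Cox4i1 and Atp5g2 are higher in all treated libraries than in DMSO, Cox8a, Atp5e and Atp5k are lower, and Sdha lies between 85.1 and 109 CPM throughout.

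The 3 genes for subunit c of the rotor ring, whose mature proteins are the same, differed in their proportions between groups. Atp5g2 (chr15:102662864-102672352, minus strand) was at 8.36 and 2.72 CPM in DMSO, 128, 121 and 146 CPM with GSK-343, and 56.8 and 69.9 CPM with TSA. The log2 fold changes were 3.51 ± 0.50 for TSA and 4.57 ± 0.50 for GSK-343 (edgeR adjusted p = 0.000704 and 7.94e-05), and both calls held in all 19 alternatives. Atp5g1 was at 41.6 and 44.6 CPM in DMSO, 15.02, 27.5 and 21.04 CPM with GSK-343, and 21.6 and 9.05 CPM with TSA and Atp5g3 at 47.1 and 48.7 CPM in DMSO, 54.97, 68.4 and 77.9 CPM with GSK-343, and 75.1 and 113 CPM with TSA, and neither was called in any comparison. Within each library, Atp5g2 made up 11.8% and 3.90% of the summed TPM of the 3 genes in DMSO, 63.9%, 59.2% and 61.6% with GSK-343, and 36.3% and 36.1% with TSA. The 3 groups did not overlap in this share. Between TSA and GSK-343, Atp5g2 itself did not pass the test (-1.05 ± 0.41, edgeR adjusted p = 0.114). Reads were shared with other genes in all 7 libraries for Atp5g2, in 5 for Atp5g1 and in 2 for Atp5g3, and how they were divided between the copies was not tested.

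Cox4i2 made up 17.3% and 35.4% of the summed TPM of Cox4i1 and Cox4i2 in DMSO, 10.3%, 14.1% and 6.09% with GSK-343, and 5.20% and 3.58% with TSA. The groups did not overlap, and the TSA libraries had the lowest shares. The other tissue isoforms were scarce. Cox8b, a heart and muscle form, was listed at 0 in every library, and Cox8c, a testis form, had 1 count in DMSO library 1 and 0 elsewhere. Cox6a2, a heart and muscle form, had counts in GSK-343 libraries 1 and 2 only (0.567 and 0.243 CPM). Cox7b2 had counts in DMSO library 2 only (3.65 CPM), and Cox6b2 and Cox7a1 stayed at or below 1.04 and 2.47 CPM. The 4 striated muscle markers summed to 0 to 11.3 CPM per library.

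**Figure D5:**
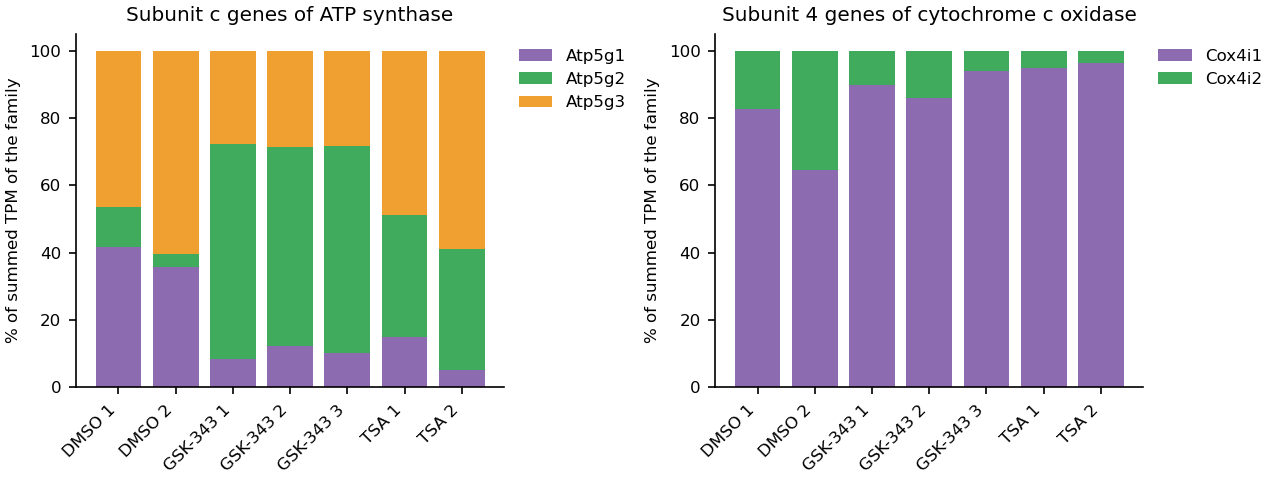
Share of the summed TPM taken by each gene for subunit c of ATP synthase (left) and for subunit 4 of complex IV (right), in percent, one bar per library. Atp5g2 takes 59.2% to 63.9% with GSK-343, 36.1% and 36.3% with TSA and at most 11.8% in DMSO, and Cox4i2 takes at least 17.3% in DMSO and at most 5.20% with TSA.

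Other mitochondrial gene lists were measured in the same fit. Of all tested genes, 12.8% were called higher and 15.7% lower with TSA than in DMSO, and 17.7% and 21.3% with GSK-343. Between TSA and GSK-343 these shares were 4.56% and 5%. Of the 13 subunits encoded in mitochondrial DNA, 12 were called lower with TSA and 12 with GSK-343 than in DMSO, with medians of -3.84 and -4.22. The 87 tested nuclear members moved in both directions in these comparisons, with 16 called higher and 11 lower for TSA and 24 and 11 for GSK-343. The differences between DMSO and the treated libraries given at the start apply here too. Between TSA and GSK-343, mt-Atp8 was called higher (2.05 ± 0.42, edgeR adjusted p = 0.0153), and the median of the 13 was 0.01. Of 37 tested assembly factors outside the rule, Sdhaf3, an assembly factor of complex II, was called higher with TSA than with GSK-343 (2.32 ± 0.54, edgeR adjusted p = 0.0246) and Cox19, which serves copper delivery to complex IV, lower (-2.00 ± 0.39, edgeR adjusted p = 0.0143). Against DMSO, 4 of these 37 were called higher and 1 lower with TSA, and 8 higher and 5 lower with GSK-343. A further list held the cytochrome c genes Cycs and Cyct together with Etfa, Etfb, Etfdh, Dhodh, Gpd2 and Sqor. Among the 7 tested there was no call between the compounds. Against DMSO, 1 was called higher and 1 lower with TSA, and 1 lower with GSK-343.

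Among 14 regulators of mitochondrial biogenesis, Ppargc1a (PGC-1α, a coactivator of respiratory genes) was at 17.3 and 9.65 CPM in DMSO, 0.283, 1.95 and 0.925 CPM with GSK-343, and 17.6 and 16.4 CPM with TSA. It was called higher with TSA than with GSK-343 (3.96 ± 0.77, edgeR adjusted p = 0.0146) and lower with GSK-343 than in DMSO (-3.62 ± 0.77, edgeR adjusted p = 0.00339). In all, 3 regulators were called higher and 3 lower with TSA than in DMSO, and 4 and 2 with GSK-343. The Ppargc1a relative Pprc1 was called lower with TSA than with GSK-343 (-1.62 ± 0.43, edgeR adjusted p = 0.0367). Nrf1 was at 69.6 and 46.7 CPM in DMSO and between 9.63 and 20.3 CPM in the treated libraries, called lower with both compounds (-2.12 ± 0.51 for TSA and -1.82 ± 0.44 for GSK-343, edgeR adjusted p = 0.0106 and 0.00677). Of 18 enzymes of the TCA cycle, 8 were called higher with TSA and 11 with GSK-343 than in DMSO and none lower.

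Of the 78 mitochondrial ribosomal proteins, 0 were called higher and 5 lower with TSA than with GSK-343, among them Mrpl2 (-1.67 ± 0.43) and Mrpl37 (-1.60 ± 0.42), and the median was -0.83. With effective length as an offset, no mitochondrial ribosomal protein was called in this comparison. Against DMSO, 10 were called higher and 4 lower with TSA, and 24 higher and 4 lower with GSK-343. Of 24 tested genes of mitochondrial protein import, 5 were called lower and none higher, among them Tomm6 (-2.37 ± 0.49) and Tomm22 (-1.75 ± 0.37), and the median was -0.86. Against DMSO, 2 of these were called higher with TSA, and 6 higher and 1 lower with GSK-343. These medians, like that of the nuclear subunits, lay below the 0 of all tested genes in this fit.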

How the data were processed

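RNA of sorted supporting cells was sequenced in 7 libraries. Per the submitters' processing notes, reads were handled with STAR and RSEM on mm10, and DESeq2 was used. The expected counts and the TPM values are those the authors deposited per gene, per the file headers: RSEM's estimated counts share ambiguous reads between genes, and TPM divides by effective length. The deposited lengths and effective lengths were read from the same tables. The annotation release is not given in the sources used here. Gene symbols and mm10 coordinates came from GENCODE M21, with 48349 of 48709 identifiers matched.

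Expected counts were rounded and tested with edgeR 4.0.16 in R 4.3.3 (filterByExpr, TMM, quasi-likelihood F tests without the robust option, Benjamini-Hochberg adjustment over 14907 genes). All 7 libraries entered 1 model with 4 residual degrees of freedom and a biological coefficient of variation of 0.43. SEs were derived from the fold change and its F statistic, as the ratio of the former to the root of the latter. Tested on simulated data for TSA against GSK-343 (14112 genes, 200 of them changed), the fit recovered 1.49%, 40.3% and 60.6% of genes changed 2-, 4- and 8-fold, with 4 false calls. No pair of replicates agreed within sampling noise. Permutation tests cannot pass 0.05 with groups of 2 and 3.

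The members and lists were chosen with earlier results of these data known. The promoter motif letters were also chosen then: longer NRF1, YY1 and SP1 patterns were searched first and were replaced by the shorter letters reported here. Where a gene had several promoter windows, the first was used. Named members are, per comparison and complex, up to 3 called in each direction by smallest adjusted p, fixed members of each complex, all tissue isoforms and the highest and lowest member of each complex by TPM. Alternatives were other scalings, filters and sample sets, DESeq2 1.42.0, limma 3.58.1 on log2(TPM + 1) and log2(TPM + 0.1) over 19336 genes, a GC and length trend removed, nuclear protein-coding genes alone, each library left out, and, added after the data were seen, the robust option and effective length as an offset. Tables and plots used matplotlib 3.10.9, numpy 2.4.6 and pandas 2.3.3 under Python 3.11.15.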

Additional observations from a re-analysis of the deposited data

How the results depend on the processing

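With 2 or 3 libraries per group and a median of 64 to 134 counts per tested member, changes of 2-fold were rarely recovered in simulated data, so a member without a call cannot be taken as equal between groups. For TSA against GSK-343, 2 members were called lower. That count was 1 with total count scaling, 6 without the low-count filter, 4 with only the 2 groups compared, 1 with the GC and length trend removed and 7 with the DESeq2 Wald test and, when 1 library was left out, between 0 and 8. Deviations of same-numbered libraries from their group means had correlations from -0.0936 to 0.0395. In a group of 2 the deviations mirror each other, so these values cannot show whether the libraries were paired. With the replicate block the count was 4. For the alternatives in this paragraph the share of all genes called is not given, so these counts describe the members alone. The members' median was -0.059 with the trend removed, -0.016 on log2(TPM + 1) and -0.0096 on log2(TPM + 0.1), beside -0.48, and from -0.58 to -0.31 when 1 library was left out.

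For TSA against DMSO, 16 members were called higher and 11 lower. The counts were 26 and 4 with total count scaling (median 0.53, with all genes at 0.65), 25 and 6 with the trend removed (median 0.45), 39 and 3 on log2(TPM + 1) (26.1% and 12.9% of all genes; median 1.22, with all genes at 0.67) and 39 and 2 on log2(TPM + 0.1) (median 1.24). The median was 0.19 with effective length as an offset, -0.13 without the filter and -0.13 with only the 2 groups compared. Leaving out 1 library gave 8 to 19 called higher, 2 to 16 called lower and medians from -0.21 to -0.050. For GSK-343 against DMSO, 24 were called higher and 11 lower. The counts were 37 and 7 with total count scaling (median 0.95, with all genes at 0.42), 43 and 4 on log2(TPM + 1) (21.3% and 16.4% of all genes; median 1.14, with all genes at 0.24) and 43 and 4 on log2(TPM + 0.1) (median 1.19), with 6 lower under the effective length offset. Leaving out 1 library gave 18 to 28 higher, 8 to 12 lower and medians from 0.26 to 0.57. Except for log2(TPM + 1) and the effective length offset, the share of all genes called in these alternatives is not given. The other counts can therefore not be read as particular to the members. The cause of these shifts was not tested.

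As a share of all TPM instead of nuclear protein-coding TPM, the members averaged 0.471%, 1.37% and 1.42% in DMSO, GSK-343 and TSA, beside 1.04%, 1.64% and 1.94%. Single members that changed sign included Sdha (1.52 and 1.54 for TSA, 0.95 and 0.96 for GSK-343 against DMSO on log2(TPM + 1) and log2(TPM + 0.1)). With the trend removed, Atp5mpl (0.036) and Ndufa4 (1.16) did so for GSK-343 against DMSO. Others did so between counts and TPM. Ndufab1 had -0.69 for GSK-343 over DMSO in counts. Its TPM was 41.1 and 47.6 in DMSO and 62.5, 60.3 and 70.3 with GSK-343. Cox6b1 had -0.25 for TSA over DMSO in counts. Its TPM was 43.9 and 45.6 in DMSO and 90.95 and 82.3 with TSA. Of the named calls, 0 of 2 for TSA against GSK-343, 8 of 25 for TSA against DMSO and 14 of 26 for GSK-343 against DMSO held in all 19 alternatives.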
